A study of Mus musculus with 12 samples.

Results

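Fibroblast growth factors (FGFs), their receptors and an FGF-binding protein were measured in embryonic mouse neocortex at E13.5 (embryonic day), with RNA of its rostral end set against RNA of its caudal end. The members were Fgf8, Fgf17, Fgf15, Fgf11, Fgfbp3, Fgfr1, Fgfr2, Fgfr3 and Flrt3. Their Entrez identifiers in the same order are 14179, 14171, 14170, 14166, 72514, 14182, 14183, 14184 and 71436. They were found by their gene symbol among 21998 probes, which gave 9 genes on 10 probes, and all 9 were among the 14418 features (11490 named genes) that had enough values in both strains. Pools of tissue from the outbred strain MF1 (3 pools) and the inbred strain C57 (3 pools) were used, and the labels name no treatment or mutation. Each pool joined cortical tissue of 3 embryos per the labels, while the design text names a lower minimum and single litters. Its rostral RNA and caudal RNA competed on 2 arrays with the dyes Cy3 and Cy5 exchanged, so 12 arrays stand for 6 pools. Values are log2 ratios, rostral over caudal, so that 1 stands for 2-fold more signal rostrally. The genes were chosen by pathway and by these same ratios, which were already known. Their ratios are therefore a description. Counts past thresholds of a fit over all features are printed beside the share of all features, and nothing is concluded from them or from how many members lie on one side.

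FGFs are secreted proteins that bind receptor tyrosine kinases (the FGF receptors) together with heparan sulphate, and the signal runs through the Ras and MAP kinase cascade to target genes such as those of the Etv and Sprouty families. In the embryonic mouse forebrain a source at the rostral midline secretes Fgf8, Fgf17 and related ligands, and signals from it are known to promote rostral area identity in the cortex. Cortical progenitors carry the receptors, of which Fgfr3 is known for a graded pattern that is higher caudally and laterally. Fgfbp3 belongs to secreted carriers that release FGFs from heparan sulphate, and Fgf11 belongs to the intracellular FGF homologous factors, which are not classed as ligands of the receptors. Flrt3 is a transmembrane protein with leucine-rich repeats that binds FGF receptors and, in frog embryos, promotes FGF signalling. It also serves as an adhesion and guidance molecule.

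Start regions are shown for Fgfbp3, which had the highest mean ratio, and for Fgfr3 and Flrt3, whose means were below 0, to set their base composition side by side. Windows of 300 bases (250 before to 50 after a start site, RefSeq, build GRCm38.p6, each read 5′ to 3′ on the gene's strand) were matched by symbol for 5 members, with 6 windows in all. Capitals mark CG dinucleotides.
Fgfbp3, chr19:36919550-36919849, minus strand: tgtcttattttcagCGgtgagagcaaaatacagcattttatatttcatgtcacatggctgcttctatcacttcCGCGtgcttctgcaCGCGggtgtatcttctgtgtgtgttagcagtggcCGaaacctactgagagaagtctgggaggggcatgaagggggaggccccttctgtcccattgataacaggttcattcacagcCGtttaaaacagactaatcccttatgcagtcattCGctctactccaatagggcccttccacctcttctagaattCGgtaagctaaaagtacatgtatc
Fgfr3, chr5:33721474-33721773, plus strand: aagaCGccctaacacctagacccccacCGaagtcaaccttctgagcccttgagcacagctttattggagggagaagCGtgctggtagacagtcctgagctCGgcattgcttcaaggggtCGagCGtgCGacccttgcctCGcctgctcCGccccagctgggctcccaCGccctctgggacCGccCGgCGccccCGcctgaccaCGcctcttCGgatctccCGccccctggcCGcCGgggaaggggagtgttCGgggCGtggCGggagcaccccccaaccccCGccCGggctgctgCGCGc
Flrt3, chr2:140671427-140671726, minus strand: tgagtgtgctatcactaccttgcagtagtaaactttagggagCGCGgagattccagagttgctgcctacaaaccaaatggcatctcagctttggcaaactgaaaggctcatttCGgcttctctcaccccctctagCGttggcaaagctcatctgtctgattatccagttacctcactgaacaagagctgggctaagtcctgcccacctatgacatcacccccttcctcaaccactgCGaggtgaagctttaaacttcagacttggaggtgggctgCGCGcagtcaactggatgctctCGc
The Fgfbp3 window had a GC content of 46.7% and 9 CG dinucleotides, and the Flrt3 window had 51.3% and 8. The Fgfr3 window had 69.7% and 26, and a second Fgfr3 window at another start site had 73.0% and 30. Fgf11 and Fgfr2 also had means below 0, and their windows, not shown, had 52.3% and 5, and 43.7% and 4. Over all 32851 windows the medians were 52.7% and 7. The nuclear receptor motif AGGTCA and the ETS factor motif CCGGAA, read on both strands with overlaps allowed, occurred 0 times in each of the 6 windows of members, which also cover Fgf11 and Fgfr2. They occurred in 16.3% and 14.9% of all windows. The absence of these letters says nothing on binding by such factors, and the windows of Fgf8, Fgf17, Fgf15 and Fgfr1 were not used here.

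The direction of the ratios was inferred from genes that are not FGF members, because the sources used here do not say which dye was the numerator. With Cy5 over Cy3 as the convention, the caudal marker Nr2f1, a nuclear receptor of caudal area identity, averaged -1.14 ± 0.57 (SD, n = 6 pools) and was below 0 in 6 of 6 pools. Lhx2, a homeobox factor known to be higher caudally, averaged -0.50 ± 0.13 and was below 0 in 6 of 6, while Pax6, a progenitor factor that is higher rostrally, averaged 0.40 ± 0.18 and was above 0 in 6 of 6. Emx2 (0.09 ± 0.27) and Crym (-0.047 ± 0.31), also known as caudal, had 3 of 6 pools on either side. The direction is likely rather than known, and with the other convention every sign given here would turn. The share of probes without a value ran from 4.55% to 18.2% over the arrays. The SD of the log2 ratios, from the median absolute deviation, averaged 0.487 on MF1 arrays and 0.745 on C57 arrays. Each array held a single strain, so strain and set of arrays cannot be told apart. Over all probes, MF1 pool 3 had Spearman correlations of -0.18 and -0.21 with MF1 pools 1 and 2, which correlated at 0.25 with each other, although Nr2f1, Lhx2 and Pax6 kept their side in it. In C57 pool 3 the deviations of the pool's arrays from their strain and orientation means had a Spearman correlation of 0.00 across probes. Arrays that run opposite to each other give a value below 0 where the pool differs from its strain mean. The check therefore did not bear out the dye swap of that pool, and it did not show that the swap failed. The check cannot tell which array of a pool had rostral RNA in Cy5. In the other 5 pools the correlation was between -0.35 and -0.15. Nr2f1 (-1.51) and Lhx2 (-0.56) were below 0 and Pax6 (0.41) above 0 in C57 pool 3 too. For Fgf8, Fgf15, Fgfr1, Fgfr2 and Flrt3 a mean without 1 of these pools is also given.

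With limma on pool means and Benjamini-Hochberg adjustment, 0 of the 9 members passed an adjusted p of 0.05 over both strains, where 0% of all 14418 features passed. The same holds in MF1, in C57 and for the difference between the strains, again with 0% of all features called in each. At an unadjusted p under 0.05 there was 1 member higher rostrally, Fgfbp3, where 4.34% of all features were. There were 3 members lower rostrally, Fgf11, Flrt3 and Fgfr3, where 4.64% of all features were. These 4 of 9 stand beside 8.98% of all features in either direction. When limma was fitted to single arrays, with pools as random blocks, Fgfbp3 passed and the other 8 members did not, where 0.173% of all features (25) passed. The consensus correlation of that fit was 0.00624, so a pool's dye-swapped arrays counted almost as separate replicates. Of the 8 members with a value in 6 pools, 1 was above 0 in all of them (3.46% of all 10596 such features) and 2 were below 0 in all of them (2.49%), so 3 of 8 kept a side, as 5.96% of such features did. No member had its MF1 pools on one side of 0 and its C57 pools on the other, which 2.02% of the 10596 features did. Since the ratios chose the members, these shares are given only for comparison. The arrays measure bulk tissue, in which fewer cells of a type and less RNA per cell cannot be told apart.

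**Figure D1:**
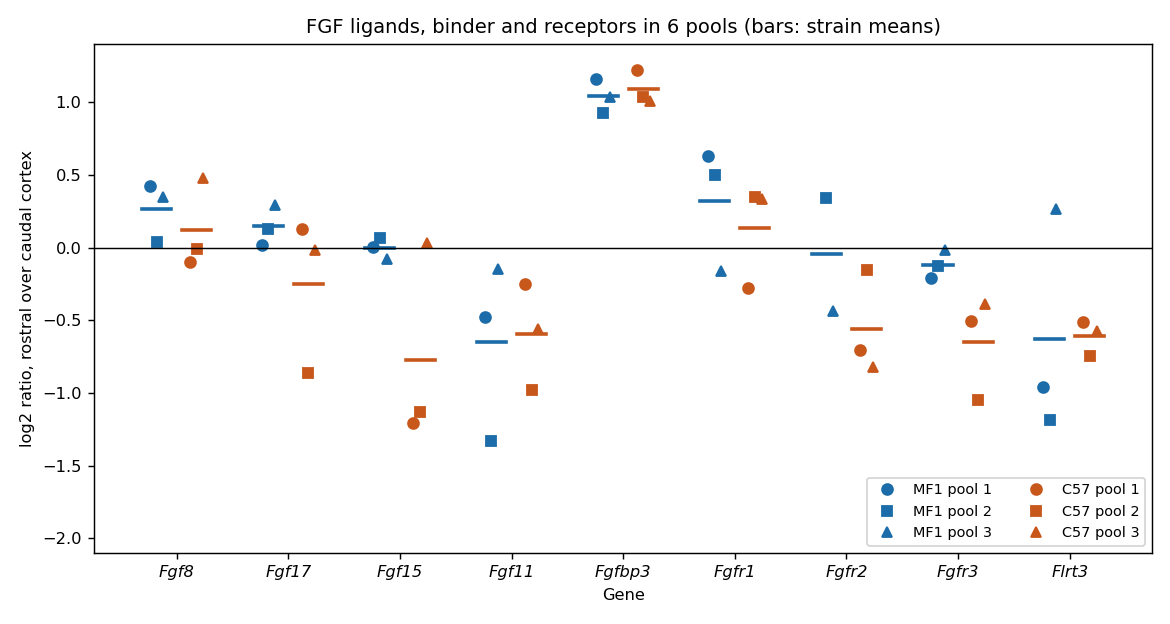
Log2 ratio of rostral over caudal cortex (vertical axis) of each gene (horizontal axis) in each pool, with MF1 in blue left of C57 in orange, a marker shape per pool and a bar at each strain's mean. Fgfbp3 lies between 0.92 and 1.22 in the 6 pools, and Fgf11 and Fgfr3 lie below 0 in all 6.

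Among the ligands of the Fgf8 subfamily, Fgf8 itself, the signal of the rostral patterning centre, had log2 ratios of 0.42, 0.035 and 0.35 in MF1 (pools 1 to 3 in turn, here and for the other genes) and of -0.10, -0.0135 and 0.48 in C57. The mean over pools was 0.19 ± 0.25 (SD, n = 6), a 1.14-fold difference, with 4 pools above 0 and 2 below. The strain means were 0.27 ± 0.20 in MF1 and 0.12 ± 0.31 in C57 (SD, n = 3 each), and the ranges of the strains overlap. The highest pool was C57 pool 3 and the lowest C57 pool 1, so the spread within C57 was wider than the distance between the strain means. All ratios are relative to the median of their array, and without that centring the mean of Fgf8 was 0.0060 while the median over all features was -0.18. Without C57 pool 3 the mean of both strain means was 0.105. Fgf17, a close relative of Fgf8 that is known to pattern dorsal frontal cortex, had ratios of 0.0195, 0.125 and 0.29 in MF1 and of 0.12, -0.86 and -0.015 in C57. Its mean of -0.052 ± 0.41 (SD, n = 6) rests on C57 pool 2. Without that pool the mean of both strain means was 0.10, on the other side of 0. Fgf18, the other member of the subfamily, had a value on at most 10 of 12 arrays and did not enter the fit.

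Fgf15, the mouse counterpart of human FGF19 and a ligand made near the midline of the embryonic forebrain, split the C57 pools. Its ratios were 0.0015, 0.0645 and -0.08 in MF1 and -1.21, -1.13 and 0.029 in C57. The MF1 mean was -0.0047 ± 0.072 and the C57 mean -0.77 ± 0.69 (SD, n = 3 each), a difference of 0.77 in log2 ratio. C57 pool 3 lay within the MF1 range, so the strains overlap. The arrays of that pool had opposite signs, at -0.465 with rostral RNA in Cy3 and 0.523 with it in Cy5. Without that pool the mean of both strain means was -0.59, against -0.39 with it. The mean over 6 pools was -0.39 ± 0.61, and its spread exceeded that of 82.2% of the features with 6 pools.

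Fgf11, an intracellular homologous factor, was read by 2 probes. Averaged over them, it had ratios of -0.48, -1.33 and -0.146 in MF1 and of -0.25, -0.98 and -0.56 in C57, below 0 in 6 of 6. The mean was -0.62 ± 0.45 (SD, n = 6), 1.54-fold lower rostrally, and the strain means were -0.65 in MF1 and -0.60 in C57. The first probe, with values on 12 of 12 arrays, gave -0.40 ± 0.29 (n = 6) and was also below 0 in 6 of 6 pools, between -0.12 in MF1 pool 2 and -0.83 in C57 pool 3. The strain means of the first probe were -0.25 in MF1 and -0.54 in C57, further apart than the averaged ones and in the other order. The second probe had values in 4 pools and gave -1.12 ± 1.07, with -2.54 in MF1 pool 2, its only MF1 pool. The lowest averaged value, that of MF1 pool 2, thus came from the second probe. Its relatives Fgf12 (0.07 ± 0.52, n = 5), Fgf13 (-0.054 ± 0.31, n = 6) and Fgf14 (-0.20 ± 0.42, n = 6), also intracellular factors, had means closer to 0. Of these, Fgf14 was below 0 in 5 of 6 pools.

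Fgfbp3, the carrier that frees FGFs from heparan sulphate, had the highest ratio of the members in each of the 6 pools. It had log2 ratios of 1.16, 0.92 and 1.04 in MF1 and of 1.22, 1.04 and 1.01 in C57. The mean was 1.06 ± 0.11 (SD, n = 6), 2.09-fold higher rostrally. The strain means of 1.04 ± 0.12 in MF1 and 1.09 ± 0.11 in C57 differed by less than the spread between pools of either strain. This closeness depended on the processing. With arrays also scaled to a common spread the means were 1.36 in MF1 and 0.90 in C57. With rostral RNA in Cy3 they were 1.04 and 0.72, and with it in Cy5 they were 1.04 and 1.46. The SD of Fgfbp3 over pools was smaller than those of all but 1.59% of the features with 6 pools, whose median SD was 0.35. On the 12 single arrays its ratio ran from 0.46 to 1.56, above 0 on 12 of 12, as on 0.245% of all 10622 features with values on all arrays. The distance to the nearest member was wide. Fgfbp3 exceeded Fgfr1 by 0.84 ± 0.42 (SD, n = 6) and Fgf8 by 0.87 ± 0.28, in 6 of 6 pools for each. Fgfbp1, the other carrier measured, had a ratio of 0.47 ± 1.29 (n = 5) with 3 pools above 0 and 2 below, and C57 pool 2 alone reached 2.68.

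The 3 receptors differed in where they lay. Fgfr1, a main receptor of telencephalic progenitors, had ratios of 0.63, 0.50 and -0.16 in MF1 and of -0.28, 0.35 and 0.33 in C57, with a mean of 0.23 ± 0.37 (SD, n = 6). Its low pools were MF1 pool 3 and C57 pool 1, and without MF1 pool 3 the mean of both strain means was 0.35. It was 0.15 without MF1 pool 1 and 0.039 with arrays not centred. Fgfr2, which ventricular zone cells also carry, had ratios of 0.34 and -0.43 in MF1 pools 2 and 3 and of -0.71, -0.15 and -0.82 in C57. MF1 pool 1 had a value on only 1 of its arrays and was left out. The mean over pools was -0.35 ± 0.47 (SD, n = 5), with 4 pools below 0, and the strain means were -0.046 in MF1 (n = 2) and -0.56 in C57 (n = 3). Without C57 pool 3 the mean of both strain means was -0.24, against -0.30 with it.

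Fgfr3, the receptor with a known caudal bias, had ratios of -0.21, -0.127 and -0.018 in MF1 and of -0.51, -1.05 and -0.39 in C57. All pools were below 0, and the highest C57 pool lay below the lowest MF1 pool. The mean was -0.38 ± 0.37 (SD, n = 6), or 1.304-fold lower rostrally, with -0.12 ± 0.097 in MF1 and -0.65 ± 0.35 in C57 (SD, n = 3 each). Over all features the median size of a strain mean was 0.14 in MF1 and 0.21 in C57, and 60.8% of features had the larger size in C57. Of the 9 members, 5 had the larger size in C57. Fgf11, averaged over its probes, was not among them, although its first probe alone had the larger size in C57. Set against each other within pools, the ratio of Fgfr1 exceeded that of Fgfr3 by 0.61 ± 0.53 in 5 of 6 pools and that of Fgfr2 by 0.50 ± 0.39 in 5 of 5. Fgfr2 and Fgfr3 had mean ratios within 0.063 of each other, with an SD of 0.59. The remaining receptors Fgfr4 (-0.14 ± 0.55, n = 6) and Fgfrl1 (0.40 ± 0.84, n = 6), a receptor that lacks the kinase, had pools on both sides of 0. The highest Fgfrl1 ratio was 1.76 in MF1 pool 1 and the lowest -0.74 in MF1 pool 2.

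Flrt3, the receptor partner, had ratios of -0.96, -1.19 and 0.27 in MF1 and of -0.51, -0.75 and -0.57 in C57. It was below 0 in 5 of 6 pools, and MF1 pool 3 stood on the other side. The mean was -0.62 ± 0.50 (SD, n = 6), 1.54-fold lower rostrally, and the mean of both strain means was -0.84 without MF1 pool 3. The strain means were -0.63 ± 0.78 in MF1 and -0.61 ± 0.12 in C57 (SD, n = 3 each), but the spread within MF1 was far wider. The red blood cell list of 5 measured genes had medians of 0.245, -0.041 and 0.32 in MF1 pools 1 to 3, and the meninges and mesenchyme list of 12 had medians of 0.043, 0.074 and -0.10. Genes within these lists lay on both sides of 0 in MF1 pool 3, from Hbb-y at 0.89 to Klf1 at -1.04 among red blood cell genes and from Lum at 0.83 to Twist1 at -0.69 among mesenchymal genes. Their part in the Flrt3 values was not tested.

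Several members had unlike ratios on the arrays with rostral RNA in Cy3 and those with it in Cy5. On arrays with rostral RNA in Cy3 the mean ratio of Fgf15 was -0.73 ± 1.01, against -0.044 ± 0.36 on arrays with rostral RNA in Cy5 (SD, n = 6 each). In C57 pools 1 and 2 its Cy3 arrays gave -1.90 and -2.07, and its Cy5 arrays -0.52 and -0.20, so both orientations were below 0 but of unlike size. The C57 mean of Fgf15 was -1.48 with rostral RNA in Cy3 and -0.063 with it in Cy5. The MF1 means were 0.015 and -0.025, so the strains lay apart on the Cy3 arrays and close together on the Cy5 arrays. For Fgf17 the Cy3 arrays of C57 pools 1 to 3 gave -0.38, -2.26 and -0.50. Its Cy5 arrays gave 0.63, 0.54 and 0.47, so the sign turned with the dye in each C57 pool. The low value of C57 pool 2 rests on its Cy3 array. The second Fgf11 probe was above 0 on all 3 C57 arrays with rostral RNA in Cy3 (0.51 to 0.99) and below 0 on all 3 with rostral RNA in Cy5 (-1.07 to -3.71). The first Fgf11 probe was below 0 on 10 of 12 arrays, above 0 on the Cy5 arrays of MF1 pool 2 (0.081) and C57 pool 1 (0.247).

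Fgfbp3 was above 0 in 6 of 6 pools in either orientation, at 0.88 ± 0.24 with rostral RNA in Cy3 and 1.25 ± 0.27 with rostral RNA in Cy5. Fgfr3 was below 0 in 6 of 6 pools with rostral RNA in Cy5 (-0.44 ± 0.28). With rostral RNA in Cy3 it was below 0 in 3 of 6 pools (-0.32 ± 0.57), and there its MF1 mean was 0.010. Flrt3 was at -0.29 ± 0.39 with rostral RNA in Cy3 and -0.94 ± 0.67 with rostral RNA in Cy5, each below 0 in 5 of 6 pools. Fgfr1 was at 0.25 ± 0.46 and 0.21 ± 0.35, with 4 of 6 pools above 0 each. Averaging both orientations removes a dye effect that is equal on both arrays of a pool. The dye offset, which is (Cy5 array minus Cy3 array) divided by 2, averaged between -0.27 and 0.048 over the members in MF1, but in C57 it averaged 0.79 for Fgf17, 0.71 for Fgf15 and 0.37 for Fgfbp3 on one side, and -0.48 for Fgf11 and -0.43 for Flrt3 on the other. For the other 4 members it lay between -0.040 and 0.116 in C57. The Fgf11 offset averages 2 probes of opposite sign. In C57 pools 1 to 3 the first probe had offsets of 0.44, 0.47 and 0.205, and the second -0.88, -2.35 and -0.79.

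**Figure D2:**
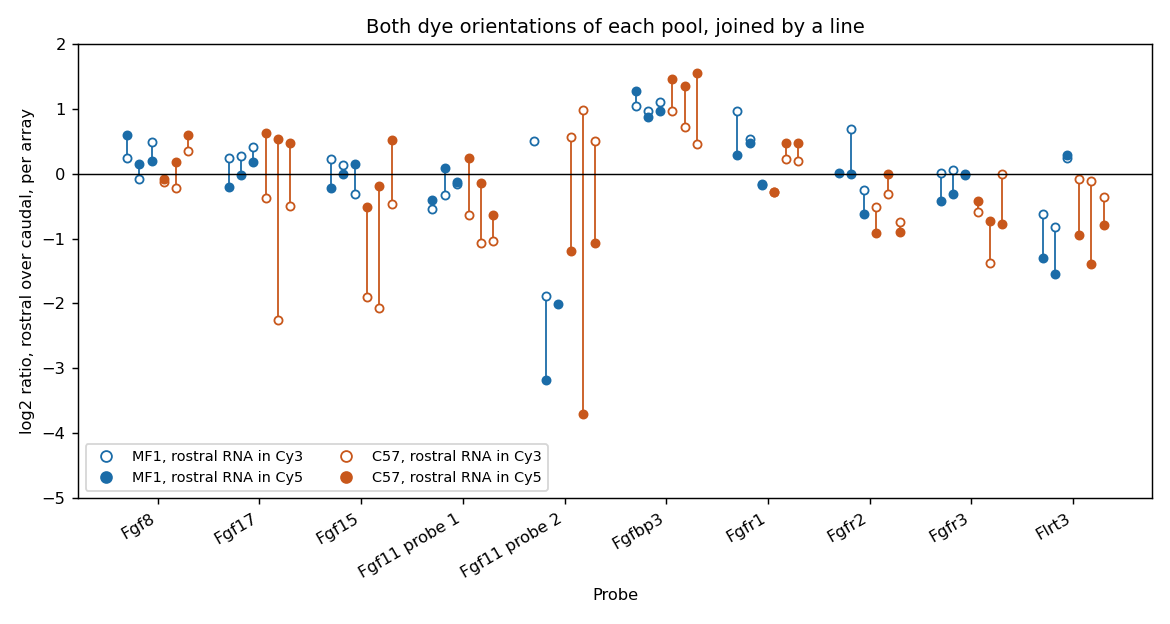
Log2 ratio of rostral over caudal cortex (vertical axis) on the single arrays of each pool for each probe (horizontal axis), in the order MF1 pools 1 to 3 and C57 pools 1 to 3. Open circles have rostral RNA in Cy3, filled circles have it in Cy5, and a line joins both arrays of a pool. All Fgfbp3 points lie above 0, while the Fgf17 line of C57 pool 2 spans -2.26 to 0.54.

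Genes with the most similar profile were sought among 8871 named genes with values in 6 pools, by the root mean square difference of the log2 ratio. For Fgfbp3 these were Sfrp1 (0.22), a secreted Wnt inhibitor, Pantr1 (0.25), a noncoding RNA, and Dct (0.30), an enzyme of melanin synthesis. For Fgfr3 they were Igf1r (0.107), the receptor of insulin-like growth factor 1, Ednrb (0.113), an endothelin receptor, and 0610031G08Rik (0.128). For Flrt3 they were Ccdc58 (0.20), Acp2 (0.27) and Copa (0.27), each with MF1 pool 3 above 0. For Fgf8 they were Man2b1 (0.049), Abhd18 (0.093) and Eif6 (0.097), and for Fgf17 Mpp5 (0.083), Pkp3 (0.121) and Nkx2-2 (0.130). For Fgf15 they were Pfn1 (0.163), Asxl2 (0.172) and Ceacam10 (0.181), for Fgf11 Utrn (0.28), Gabra2 (0.30) and Ttbk2 (0.32), and for Fgfr1 E2f1 (0.108), Josd1 (0.116) and Atg13 (0.116). Fgfr2 had no value in MF1 pool 1 and was not compared. These are the nearest of many profiles over 6 points that share their arrays, and they carry no test.

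**Figure D3:**
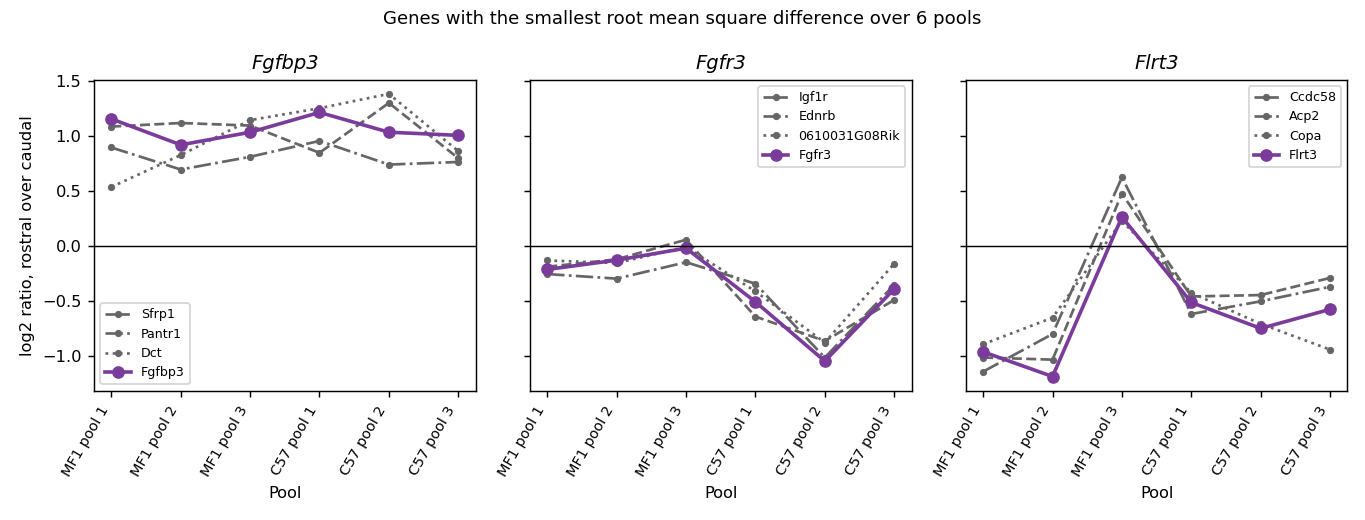
Log2 ratio of rostral over caudal cortex (vertical axis) in each pool (horizontal axis) of Fgfbp3, Fgfr3 and Flrt3 (purple) with the 3 nearest genes of each (grey). Sfrp1, Pantr1 and Dct lie between 0.54 and 1.39, and Flrt3 and its neighbours rise above 0 in MF1 pool 3 alone.

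The rest of the pathway was described from lists of further ligands, receptors and co-factors, signal transducers, and targets. None of these genes passed over all features, as none of the 14418 did. Of 18 further ligands, 6 had enough values, 3 with a mean above 0 and 3 below, and the median was 0.0083, beside 0.0086 over all features. The 12 others had values on 6 to 10 arrays. Fgf16 had the smallest p among the ligands, at 0.47 ± 0.65 (SD, n = 5). Of 15 receptors and co-factors 10 were measured, 4 above 0 and 6 below, with a median of -0.038, and Cep43, a centrosomal protein once named for a fusion with Fgfr1, was at -0.40 ± 0.41 (n = 6). Of 18 transducers 9 were measured, 5 above 0 and 4 below, with a median of 0.028. The kinase Braf was at -0.32 ± 0.31 and the GTPase Nras at -0.22 ± 0.35 (n = 6 each), both below 0 in 5 of 6 pools.

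Targets and feedback genes of the pathway lay mostly above 0. Of 12 listed, 7 were measured, 6 with a mean above 0 and 1 below, and the median was 0.24. Etv5, an ETS factor induced by FGF signals, was at 0.54 ± 0.05 when its probes were averaged, and Spry2, a feedback inhibitor, was at 0.50 ± 0.19 (SD, n = 6 each), both above 0 in 6 of 6 pools. So was Spred1, an inhibitor of Ras signalling named after its values were seen, at 0.27 ± 0.09 (SD, n = 6). The medians of this list were above 0 in 6 of 6 pools, between 0.17 in MF1 pool 3 and 0.44 in MF1 pool 1. The members' own median was -0.35 and that of all features 0.0086. At an unadjusted p under 0.05 there were 3 of 7 targets higher rostrally and 0 lower, where 4.34% of all features were higher and 4.64% lower, and this list too was chosen with the ratios known.

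**Figure D4:**
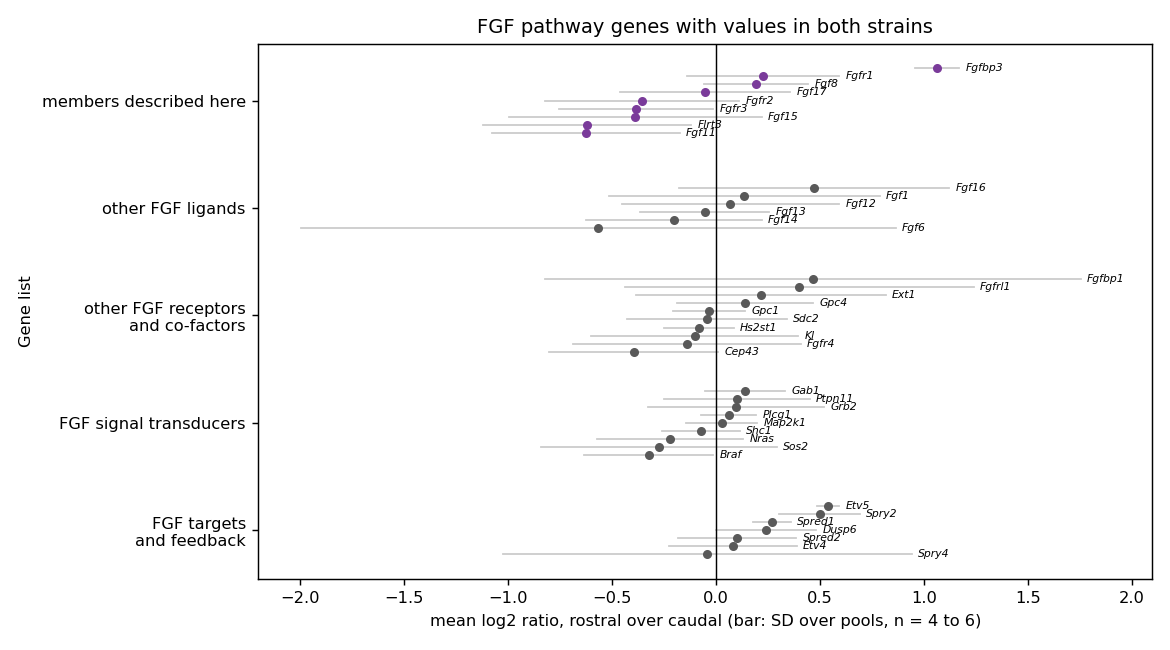
Mean log2 ratio of rostral over caudal cortex (horizontal axis) of each measured gene of the members and of 4 further FGF lists (vertical axis), with bars of 1 SD over 4 to 6 pools. Of the targets, 6 of 7 lie above 0, while 6 of 9 members lie below 0.

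Markers of the tissue and of its neighbours were set beside the members. Of 12 neocortex genes 11 were measured, among them Emx1, Tbr1 and Eomes, with a median of 0.14 and 10 of them above 0. A ratio gives no level, so these markers show which probes had values, not how much of a cell type was present. Genes of the cortical hem and choroid plexus, which lie at the medial edge of the cortex, had a median of -0.32 (10 of 14 measured, 2 above 0 and 8 below), with -0.09 in MF1 and -0.57 in C57. Its pool medians ran from -0.15 to -0.112 in MF1 and from -0.62 to -0.067 in C57. Genes of meninges and mesenchyme had a median of -0.099 (12 of 15 measured, 3 above 0 and 9 below), with 0.032 in MF1 and -0.23 in C57. Its pool medians ran from -0.10 to 0.074 in MF1 and from -0.44 to -0.27 in C57. Lmx1a, a factor of the cortical hem, was at -1.33 ± 1.06 (SD, n = 4) and Twist2, a mesenchymal factor, at -0.45 ± 0.49 (n = 6). Both lists had lower medians in C57 than in MF1. So had the septum, diencephalon, blood vessel, red blood cell and ventral telencephalon lists given below, while the neocortex and microglia lists had higher ones. The means of Fgf8, Fgf17, Fgf15, Fgfr1, Fgfr2 and Fgfr3 were also lower in C57. Those of Fgf11 (averaged over its probes), Fgfbp3 and Flrt3 were not. The part of the listed cell types in these strain differences was not tested.

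The medians of the other lists lay between -0.064 and 0.11. They were -0.0012 for the ventral telencephalon (12 of 14 measured), 0.11 for the septum and rostral midline (7 of 8), -0.055 for the diencephalon (7 of 10), -0.064 for blood vessels (11 of 12), -0.052 for red blood cells (5 of 11) and 0.005 for microglia (9 of 11). The ventral list ran from -0.36 in C57 pool 1 to 0.49 in C57 pool 2, pools in which Fgf15 was at -1.21 and -1.13. In the septum and rostral midline list 4 genes were above 0 and 3 below, from Zic1 at 0.78 ± 0.31 (above 0 in 6 of 6 pools) to Shh at -0.29 ± 0.45 (SD, n = 6 each). Fgfbp3 was at 0.92 or more in each pool. The part of these cell types in the Fgfbp3 and Fgf15 values was not tested.

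**Figure D5:**
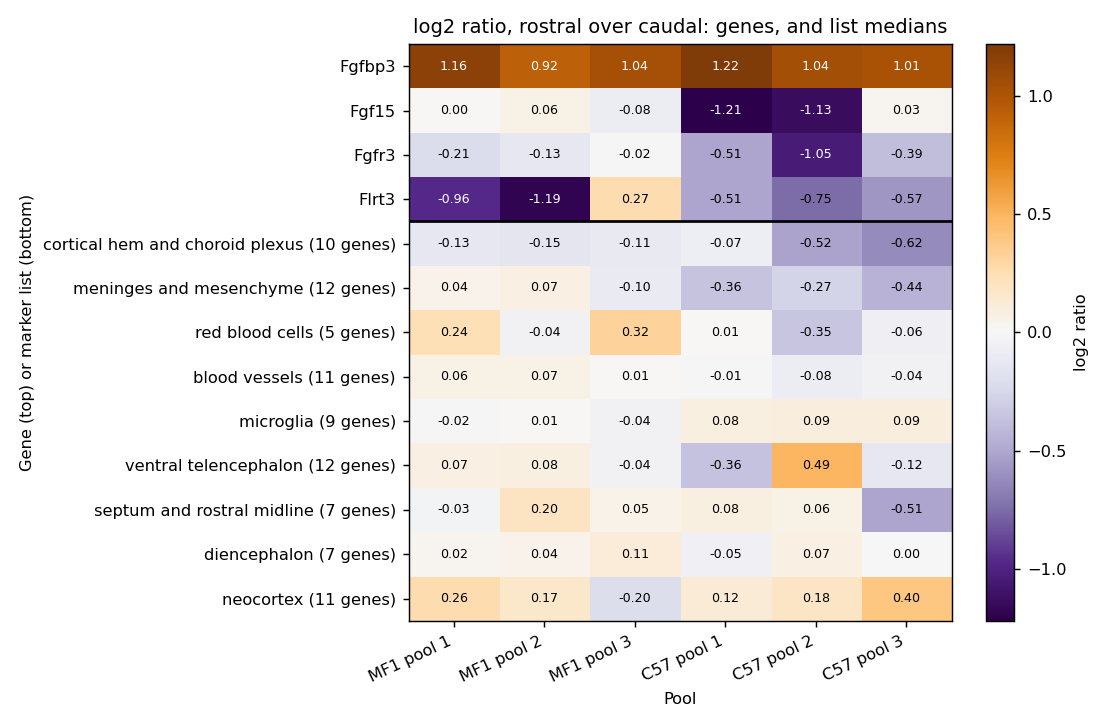
Log2 ratio of rostral over caudal cortex (colour and printed value) in each pool (horizontal axis) for 4 FGF genes (top) and the medians of 9 marker lists (bottom). Fgfbp3 is above 0.9 in every pool, and the meninges medians run from -0.44 in C57 pool 3 to 0.074 in MF1 pool 2.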

How the data were processed

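The authors' deposited values were log2 ratios between the dyes of 12 arrays, judged from the values, which were signed, near 0 and capped at 16.61. The labels put rostral RNA in Cy3 for one array of a pool and in Cy5 for its dye swap. They give Trizol for RNA extraction, and the design text gives SMART amplification of cDNA. The sources used here do not describe scanning, background correction or normalization. Whether the deposited values were corrected for bias of a dye with intensity is therefore not known, and no such correction was made here. Signal over background was not known, and precision is limited by the number of arrays. The 701 capped values were set missing, and 0 columns belonged to other samples. Arrays were centred on their medians (-0.41 to 0.475) and turned to rostral over caudal. The arrays of a pool were then averaged, and so were the probes of a gene.

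Features needed 2 pools per strain. In the platform annotation 16864 probes had 1 symbol, 139 had several and were left unnamed, and 4995 had no entry. RefSeq held the Entrez identifiers of 16184 probes. The fit was limma's (version 3.58.1, R 4.3.3) on the means of pools, with a mean per strain and adjustment over 14418 features, and the script was tested on simulated data. The deviations of a pool's arrays from their strain and orientation means should correlate below 0 under 2 conditions. Its arrays run opposite to each other, and the pool differs from its strain mean. The Spearman correlations were -0.25, -0.22 and -0.35 in MF1, and -0.15, -0.16 and 0.00 in C57. C57 pool 3 did not meet this check, which does not show that its dye swap failed. A pool with both dye labels exchanged would give a value below 0 too, so the check cannot tell which array had rostral RNA in Cy5. No label assigns the pools to different litters, so the spread between pools may be partly technical.

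The members and lists were chosen with earlier results of these data known. The text names all members, the 2 genes of smallest p in each FGF list and the members' relatives, the 3 nearest profiles per member, the genes used for direction and, from marker lists, genes among the 2 of smallest p. Hbb-y, Lum and Twist1 were named outside this rule as the ends of their lists in 1 pool, and Emx1, Tbr1 and Eomes as known markers of neocortex. Alternatives changed centring, scaling, capped values, missing values, probe averaging, dye orientation, the unit of replication and the pools included.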

Additional observations from a re-analysis of the deposited data

Results flagged for a closer look

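Fgf17 stood out in C57 pool 2, with a log2 ratio of -0.86 in that pool and ratios between -0.015 and 0.29 in the other 5 pools. Its gap to the nearest pool, relative to the range of all 6, passed Dixon's 95% limit, which chance alone passes in about 1 of 20 groups. All 9 members were checked in this way and Fgf17 alone passed, so a pass by chance somewhere among them is likelier than that. The arrays of that pool gave -2.26 with rostral RNA in Cy3 and 0.54 with rostral RNA in Cy5. In C57 pools 1 and 3 the Fgf17 arrays also lay on opposite sides of 0, below it with rostral RNA in Cy3.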

How the results depend on the processing

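With limma on pool means 0 features passed for both strains, MF1, C57 and the strain difference, and the smallest adjusted p was 0.147, 0.364, 0.177 and 0.532 in that order. At an unadjusted p under 0.05 there were 1295, 628, 1400 and 879. Over both strains this count was 798 without MF1 pool 1, and 2168 with arrays not centred, of which 144 were higher and 2024 lower rostrally, in place of 626 and 669. Over both strains 6 features passed among those complete on 12 arrays, and 25 passed when single arrays were fitted with pools as random blocks. That fit passed 3 in MF1 and 11 in C57, and its consensus correlation of 0.00624 makes a pool's arrays count almost as separate replicates. In C57, 188 passed with rostral RNA in Cy3 only, 146 higher and 42 lower rostrally. With it in Cy5 only 118 passed, 17 higher and 101 lower. The main direction of these calls thus turned with the dye, and a fit to 1 orientation does not average out a dye effect. Every other setting run gave 0, and leaving out each pool gave 0 to 0. Fgfbp3 was the only member to pass anywhere: over both strains in the random-block and complete fits, in MF1 and C57 in the random-block fit, and in C57 with rostral RNA in Cy5 only.

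Pool numbers do not pair the strains: deviations of same-numbered pools correlated at -0.23, 0.12 and 0.01. With the pool number as a replicate block 0 features passed in each of the 4 comparisons. The mean of Fgf17 changed sign in 3 of 17 alternatives, to 0.0022 with arrays scaled, 0.26 with rostral RNA in Cy5 only and 0.10 without C57 pool 2. The other 8 members kept their sign in every alternative run. The mean of Fgfbp3 over both strains stayed between 0.875 and 1.25, with 0.875 where arrays were not centred and the median of all features was -0.18. The size of Fgf15 ran from -0.73 to -0.044 and that of Fgf8 from 0.0060 to 0.28. The causes were not tested.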
